A study of Mus musculus with 11 samples.

Results

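The organic ion transporters described here are 9 genes: Slc22a2, Slc22a4, Slc22a5, Slc22a6, Slc22a8, Slc22a12, Slc22a18 and Slc22a22 of the Slc22 family, and Slc47a1. They were chosen by name, and all of their probe sets were read: 14 of the 45037 that are not array controls, with a pair of probe sets for each of 5 genes. Each of the 11 Affymetrix arrays held RNA from a pool of approximately 50 laser-captured sections from 5 kidneys of wild-type CD-1 mouse embryos at E15.5, Theiler stage 23. The sex of the embryos is given as unknown. The 4 groups were cortical collecting duct (CCD in the plots, n = 2), early proximal tubule (EPT, n = 3), ureteral smooth muscle (USM, n = 3) and urothelium, the lining epithelium of the urinary tract (URO, n = 3). The stated purpose was to profile separate components of the developing kidney, and the comparison is between compartments, since every animal was wild-type and untreated.

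Slc22 proteins carry charged organic molecules across the plasma membrane. In the proximal tubule, uptake carriers on the blood side (Slc22a6 and Slc22a8 for anions, Slc22a2 for cations) and exit carriers on the urine side (Slc47a1 for cations) work in series, so that drugs, toxins and metabolites are cleared from blood into urine. Other family members recover urate (Slc22a12) or carnitine (Slc22a5) from the filtrate, and the adult proximal tubule is the best known site of most of them.

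Values are deposited linear signals, which every array carries at a common scale with a trimmed mean of 1500. Fold changes are differences of log2(signal + 55), a scale on which the change of a dim gene is understated. A gene was called when limma's moderated test gave a Benjamini-Hochberg adjusted p under 0.05 over all 13614 genes tested and a log2 fold change of at least 1 in size. The labelled compartments were checked against marker lists, each compartment against the mean of the other 3. In proximal tubule 10 of 10 measured markers were called higher (9.53% of all genes), in smooth muscle 7 of 8 (6.05%), in urothelium 6 of 8 (1.65%) and in collecting duct 5 of 10 (1.42%). These lists held 12, 8, 10 and 10 genes, and a gene counted as measured only if it passed the brightness filter given below. Proximal tubule was also higher for 3 of 5 measured markers of the loop and distal tubule, Cldn10 (3.26), Irx3 (2.47) and Pou3f3 (1.67). Collecting duct was higher for 1 of them. Their summed signal was 89.3% to 186% of its proximal tubule mean in collecting duct and 43.4% to 113% in urothelium. It was 92.1% to 112% in the proximal tubule arrays and 5.49% to 12.4% in smooth muscle. The summed collecting duct markers were as high in urothelium (120664 to 192969) as in collecting duct (119910 to 169218). The part of these cells in the results was not tested. The summed signal of the proximal tubule markers was 123719 to 227886 in the proximal tubule arrays, 3907 to 10367 in collecting duct, 2365 to 3818 in smooth muscle and 4995 to 14686 in urothelium. The ratio of 3' to 5' signal for Gapdh, a measure of how complete the amplified RNA was, ran from 12.3 to 25.9 in collecting duct, 10.5 to 18.2 in proximal tubule, 6.79 to 13.7 in smooth muscle and 16.7 to 55.3 in urothelium. The same ratio for actin had another order, at 6.19 to 13.4, 7.35 to 13.5, 5.07 to 8.16 and 5.15 to 6.66. A date-like part of the sample labels, whose meaning is not stated, splits the arrays into 4 label batches. Proximal tubule replicate 1 shared label batch 4 with collecting duct replicate 1 and smooth muscle replicate 2. Proximal tubule replicates 2 and 3 shared label batch 3 with collecting duct replicate 2. No batch held urothelium together with proximal tubule or collecting duct.

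**Figure D1:**
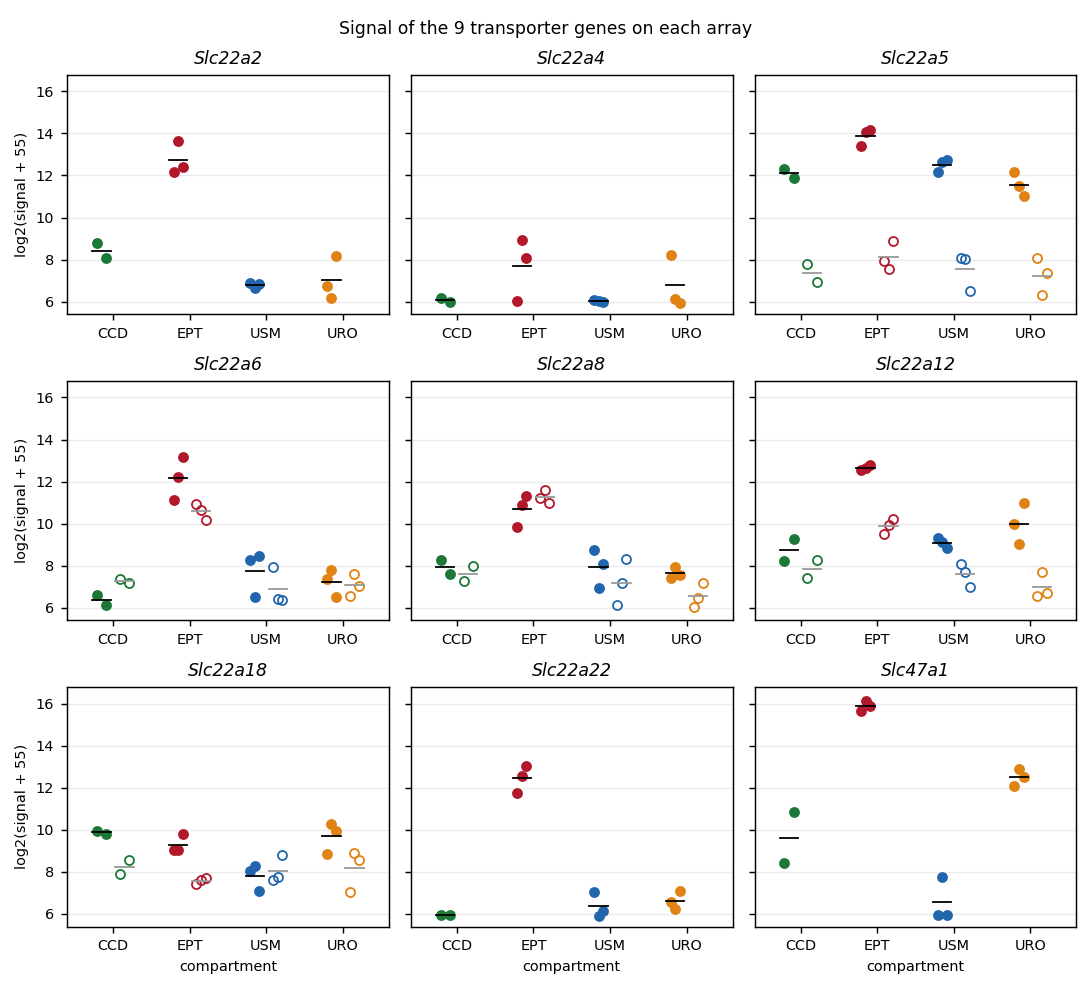
Signal of the 9 transporter genes on each of the 11 arrays, as log2(signal + 55), by compartment, 1 panel a gene. Filled points are the probe set used for the gene, open points its other probe set, and short lines the compartment means; in 7 of the panels the 3 filled proximal tubule points lie above all 8 others, while Slc22a4 and Slc22a18 do not show this.

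The main pattern was shared by 7 of the 9 genes. On the probe set used for Slc22a2, Slc22a5, Slc22a6, Slc22a8, Slc22a12, Slc22a22 and Slc47a1, all 3 proximal tubule arrays were above all 8 other arrays, a pattern that 8.47% of the genes tested showed. Of the 14 probe sets, 10 had this order, against 6.77% of all probe sets past the filter, of which 5.98% were called higher in proximal tubule. The filter kept a gene if 2 or more arrays had it above the median signal of that array. For Slc22a2 and Slc22a22 the proximal tubule arrays were the only ones above that median. These genes passed only through the group in which they were high and had to differ. The probe sets used for Slc22a6 and Slc22a8 had 1 more array above it, smooth muscle replicate 3 and replicate 1 (percentiles 50.1 and 57.9). Slc22a6 and Slc22a8 thus also passed only through proximal tubule, so their p-values add little support. Slc22a4 did not pass.

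Slc22a6 (OAT1) and Slc22a8 (OAT3) are the blood-side exchangers that take up organic anions against dicarboxylate. They are neighbours on chromosome 19, in the same orientation, with 1 annotated gene, the non-coding Gm36394, between them. The 250 bases before the start of each gene are shown because these neighbours had the most alike profiles of all pairs of the 8 genes tested. The sequences are from RefSeq (GRCm38.p6, both on the + strand, at chr19:8617746-8617995 for Slc22a6 and chr19:8592932-8593181 for Slc22a8), and are written 5′ to 3′ toward the gene. Capitals mark GTTAAT, the start of the binding sequence of the Hnf1 factors, and CAAAG, a core shared by Hnf4-type sites, on either strand.
Slc22a6: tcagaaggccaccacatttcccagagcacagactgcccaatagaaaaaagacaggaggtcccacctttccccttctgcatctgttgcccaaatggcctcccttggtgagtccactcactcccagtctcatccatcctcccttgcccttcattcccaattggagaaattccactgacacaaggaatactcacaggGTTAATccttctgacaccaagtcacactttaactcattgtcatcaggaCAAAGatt
Slc22a8: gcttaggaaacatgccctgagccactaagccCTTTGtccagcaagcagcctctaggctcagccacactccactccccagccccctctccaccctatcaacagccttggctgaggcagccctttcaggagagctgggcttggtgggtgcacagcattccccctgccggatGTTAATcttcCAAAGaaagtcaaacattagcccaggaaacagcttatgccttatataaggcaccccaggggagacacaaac
GTTAAT began 56 bases before the start of Slc22a6 and 81 bases before that of Slc22a8. Among the members with a RefSeq entry, Slc22a6 and Slc22a8 were the only genes holding it, and 7.1% of all 32817 RefSeq windows of 300 bases (250 before and 50 after a start) hold it. CAAAG lay 8 bases before the start of Slc22a6, and 219 and 71 bases before that of Slc22a8, and 54% of all windows hold it. The longer forms GTTAATNAT (in 0.801% of windows) and CAAAGTCCA (in 0.475%) were in no window of the 8 genes that have an entry. These matches are letters in a window and were not tested as sites.

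The Slc22a6 signal was 2172, 4668 and 9054 in the 3 proximal tubule arrays. It was 43 and 15 in collecting duct, 255, 35 and 299 in smooth muscle, and 109, 164 and 36 in urothelium. The lowest proximal tubule value was 7.26 times the highest value elsewhere. Against the mean of the other compartments the log2 fold change was 5.05 ± 0.51 (SE; limma, adjusted p = 2.87e-05). Its other probe set gave 1919, 1541 and 1108 in proximal tubule and at most 189 elsewhere, with a log2 fold change of 3.51 ± 0.41 (limma over all probe sets, adjusted p = 0.000187). This probe set passed the filter only through the 3 proximal tubule arrays, so it had to differ and its p adds no support. The probe sets thus had the same direction but ordered the proximal tubule replicates in opposite ways.

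The Slc22a8 signal was 863, 1834 and 2482 in proximal tubule. It read 258 and 143 in collecting duct, 376, 67 and 218 in smooth muscle, and 119, 188 and 133 in urothelium. The groups did not overlap, but proximal tubule replicate 1 was only 2.29 times smooth muscle replicate 1. The log2 fold change was 2.84 ± 0.43 (limma, adjusted p = 0.000545). The other probe set separated the groups further, with 2299, 3016 and 1933 in proximal tubule and at most 261 elsewhere (log2 fold change 4.12 ± 0.46, limma adjusted p = 0.000124), but it too passed the filter only through the proximal tubule arrays and had to differ. Against collecting duct alone the log2 difference was 2.72 ± 0.57 (limma, adjusted p = 0.0122), and it missed the threshold without collecting duct replicate 1 (limma adjusted p = 0.0514), collecting duct replicate 2 (0.133) or proximal tubule replicate 3 (0.050).

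Slc22a2 (OCT2) is the blood-side carrier for organic cations, and Slc47a1 (MATE1) exchanges cations for protons on the urine side. The Slc22a2 signal was 4569, 12503 and 5295 in proximal tubule. It was 382 and 212 in collecting duct, 64, 46 and 61 in smooth muscle, and 51, 17 and 232 in urothelium. Proximal tubule was at least 12.0 times higher on every array, and the log2 fold change was 5.31 ± 0.44 (limma, adjusted p = 8.23e-06). Both collecting duct arrays lay above the smooth muscle arrays.

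The Slc47a1 signal was 51950, 70749 and 60213 in proximal tubule, at the 99.4th to 99.8th percentile of each array. In urothelium it was 4344, 7457 and 5779, in collecting duct 282 and 1782, and in smooth muscle 7.85, 161 and 5.86. The 4 compartments therefore formed steps that did not overlap: proximal tubule, then urothelium, then collecting duct, then smooth muscle. Against the mean of the other compartments, Slc47a1 was higher in proximal tubule by 6.33 ± 0.51 (log2, SE; limma adjusted p = 6.96e-06). Each step was tested on its own. Urothelium was below proximal tubule, the log2 difference of proximal tubule over urothelium being 3.39 ± 0.62 (limma, adjusted p = 0.00303). With label batch as a block this difference was 0.81 ± 0.92 (limma, adjusted p = 0.857), and since no batch holds both compartments, that estimate runs through the smooth muscle and collecting duct arrays. Urothelium was above smooth muscle by 5.94 ± 0.62 (limma, adjusted p = 9.78e-05), by 6.49 ± 0.53 with the block (limma, adjusted p = 0.000674), and by 6.77 and 6.13 within label batches 1 and 2. Collecting duct was above smooth muscle by 3.07 ± 0.69 (limma, adjusted p = 0.013), a call lost without collecting duct replicate 2 (1.84, limma adjusted p = 0.194), without smooth muscle replicate 3 (2.75, limma adjusted p = 0.0512) and with the block (1.24, limma adjusted p = 0.627). Collecting duct was below urothelium on every array (log2 difference -2.88 ± 0.69), but this step missed the threshold over all genes (limma adjusted p = 0.106). With the block it was -5.25 ± 0.92 (limma adjusted p = 0.707). No batch holds collecting duct and urothelium, so this step cannot be told apart from label batch.

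Slc22a12 (URAT1) takes urate back from the filtrate. Its probe set of higher signal, of the s type that may also bind related transcripts, gave 5847, 6334 and 6968 in proximal tubule, the tightest proximal tubule replicates of the 9 genes. It gave 244 and 553 in collecting duct, 577, 508 and 403 in smooth muscle, and 951, 464 and 1939 in urothelium. Proximal tubule was at least 3.02 times higher on every array, urothelium replicate 3 being the nearest. The log2 fold change was 3.38 ± 0.40 (limma, adjusted p = 9.07e-05). The other probe set read 686, 918 and 1132 in proximal tubule and at most 251 elsewhere, with a smaller log2 fold change of 2.41 ± 0.39 (limma over all probe sets, adjusted p = 0.00169). Outside proximal tubule it was above the array median only on collecting duct replicate 2 (percentile 50.3). It thus passed the filter only through proximal tubule, and its p adds little support.

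Slc22a22 (OAT-PG) carries prostaglandins in the rodent kidney. Its signal was 3400, 5923 and 8309 in proximal tubule. It was 7.2 and 6.78 in collecting duct, 77, 4.39 and 16 in smooth muscle, and 40, 20 and 79 in urothelium, so the 8 other arrays lay at 79 or lower. All 3 proximal tubule arrays were far above them. The log2 fold change was 6.13 ± 0.37 (limma, adjusted p = 1.29e-06). Because those 8 values are close to or under the added 55, the size of this fold depends on it.

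Slc22a5 (OCTN2) is the sodium-dependent carnitine carrier, used by tissues that burn fatty acids, and Slc22a4 (OCTN1) carries ergothioneine. They lie on chromosome 11 with 4 annotated genes between them, 1 of which codes for protein, Slc22a21, a further member of the family. Slc22a5 was the member with the broadest signal. It read 10594, 17295 and 18085 in proximal tubule, 5109 and 3700 in collecting duct, 4478, 6267 and 6752 in smooth muscle, and 4507, 2826 and 2033 in urothelium. Proximal tubule was above every other array, by 1.57 times at the nearest, while all arrays lay at the 80.8th percentile or above. The log2 fold change was 1.81 ± 0.34 (limma, adjusted p = 0.00269), and 1.58 ± 0.58 with label batch as a block, where the call was lost (limma, adjusted p = 0.208). Within the batches that hold both compartments, proximal tubule was above collecting duct by 2.24 and 1.04 on the log2 scale and above smooth muscle by 0.75. The pairwise calls against collecting duct (1.77 ± 0.46, limma adjusted p = 0.0385) and smooth muscle (1.37 ± 0.41, limma adjusted p = 0.0308) were each lost when any of 5 single arrays was left out. For collecting duct these were both of its own arrays, proximal tubule replicates 2 and 3 and smooth muscle replicate 2 (limma adjusted p from 0.0553 to 0.261), and a pseudocount of 12 also ended this call (0.0560). For smooth muscle they were its 3 arrays and proximal tubule replicates 2 and 3 (limma adjusted p from 0.0511 to 0.107). The other Slc22a5 probe set was dim, at 24 to 418 over all arrays, with overlapping groups.

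Slc22a4 had a single probe set, with 9.41, 436 and 213 in proximal tubule. It read 16 and 7.54 in collecting duct, 13, 11 and 8.1 in smooth muscle, and 248, 14 and 7.4 in urothelium. The groups overlapped, since proximal tubule replicate 1 was among the lowest arrays and urothelium replicate 1 was above proximal tubule replicate 3. With no filter its log2 fold change was 1.38 ± 0.58 (limma, adjusted p = 0.163), so no difference was resolved.

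The starts of Slc22a5 and Slc22a4 are shown because they stand apart from those of the other members in base composition. Both are on the - strand, at chr11:53891704-53891953 for Slc22a5 and chr11:54028105-54028354 for Slc22a4 (RefSeq, GRCm38.p6). Each line gives the 250 bases before the start, 5′ to 3′ toward the gene, with every CG in capitals.
Slc22a5: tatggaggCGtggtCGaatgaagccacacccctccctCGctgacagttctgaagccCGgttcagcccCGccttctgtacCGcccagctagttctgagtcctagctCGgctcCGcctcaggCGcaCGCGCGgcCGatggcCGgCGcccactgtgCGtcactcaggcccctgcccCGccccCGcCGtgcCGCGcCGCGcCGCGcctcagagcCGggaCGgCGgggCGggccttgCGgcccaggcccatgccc
Slc22a4: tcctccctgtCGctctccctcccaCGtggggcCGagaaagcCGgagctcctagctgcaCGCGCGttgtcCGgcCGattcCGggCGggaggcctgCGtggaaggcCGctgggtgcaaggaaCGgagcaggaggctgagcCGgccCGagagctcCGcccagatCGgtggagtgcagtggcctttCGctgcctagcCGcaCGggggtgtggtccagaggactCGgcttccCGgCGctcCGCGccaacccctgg
Over windows of 300 bases, 250 before and 50 after the start, Slc22a5 held 34 CG steps and Slc22a4 29, against a median of 7 over all RefSeq windows. Slc22a6 and Slc22a18 held 2 each, Slc22a8 and both annotated starts of Slc22a22 held 1 each, Slc22a12 held 6 and Slc22a2 held 8. Of all windows, 85.4% had a lower ratio of observed to expected CG than Slc22a5, whereas 15.7% had a lower ratio than Slc22a6 and 5.68% a lower ratio than Slc22a8. Slc22a5, above the median of its array on all 11 arrays, and Slc22a4, above it on 1 array, share this composition.

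Slc22a18 is an imprinted member expressed from the maternal copy, whose substrate is not settled. Its probe set of higher signal gave 938 and 848 in collecting duct, 402, 1182 and 942 in urothelium, 463, 479 and 846 in proximal tubule, and 208, 257 and 81 in smooth muscle. Proximal tubule lay among the other epithelia, and the log2 fold change against the other compartments was 0.17 ± 0.39 (limma, adjusted p = 0.821). The smooth muscle arrays were below all 8 epithelial arrays. Smooth muscle was lower than collecting duct by 2.08 ± 0.53 (limma, adjusted p = 0.0253), than urothelium by 1.89 ± 0.47 (limma, adjusted p = 0.0244) and than proximal tubule by 1.49 ± 0.47 (limma, adjusted p = 0.0381). These 3 calls rest on few arrays, and the last was also lost with quantile normalization (1.33, limma adjusted p = 0.0562) or a pseudocount of 190 (1.08, limma adjusted p = 0.0549). Without smooth muscle replicate 3, the lowest array, they fell to 1.73, 1.53 and 1.14 (limma adjusted p = 0.0932, 0.104 and 0.150), and leaving out other single arrays also ended them. These arrays were collecting duct replicate 1 (limma adjusted p = 0.150) or 2 (0.110), urothelium replicate 2 (0.0963) or 3 (0.0710), and, for the proximal tubule difference, smooth muscle replicate 1 (0.0623) or any proximal tubule array (0.0566 to 0.132). With label batch as a block none of these calls held (limma adjusted p = 0.524, 0.065 and 0.651). The other probe set read 142, 160 and 396 in smooth muscle, inside the range of 74 to 428 over the other arrays. With the mean of both probe sets the differences were 1.13, 0.99 and 0.50 (limma adjusted p = 0.185, 0.196 and 0.451), so the low smooth muscle level was seen by 1 of 2 probe sets.

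**Figure D2:**
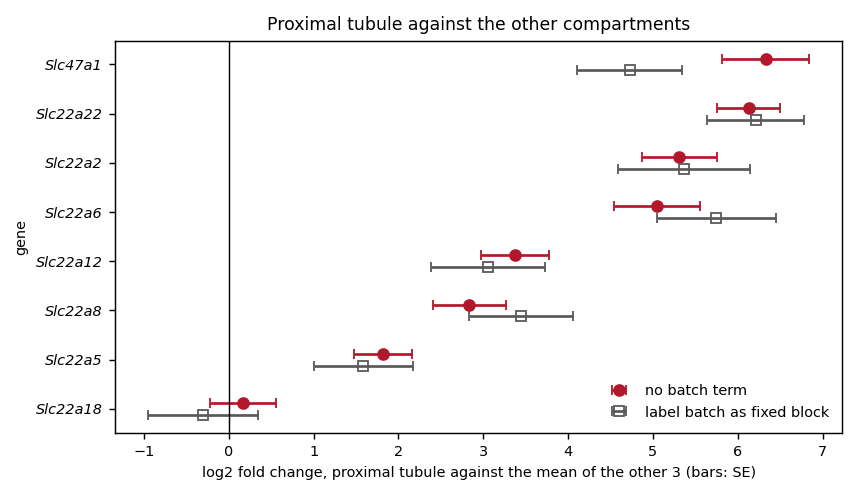
Log2 fold change of proximal tubule over the mean of the other 3 compartments for the 8 tested genes, with the standard error as bars, without a batch term and with label batch as a block. The 7 called genes lie between 1.81 and 6.33 without the block, Slc22a18 lies at 0.17, and with the block Slc47a1 moves from 6.33 to 4.72.

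Over the 8 tested genes, 7 were called higher in proximal tubule than in the mean of the other compartments (9.53% of the 13614 genes). Of these 7, Slc22a2, Slc22a6, Slc22a8 and Slc22a22 passed the filter only through the proximal tubule arrays. With label batch as a block, 6 of 8 were called higher, against 2.01% of all genes. Those 6 were Slc22a22 at 6.21 ± 0.57 (limma adjusted p = 0.00261), Slc22a6 at 5.75 ± 0.70 (0.00583), Slc47a1 at 4.72 ± 0.61 (0.00624), Slc22a2 at 5.37 ± 0.78 (0.00737), Slc22a8 at 3.44 ± 0.61 (0.0185) and Slc22a12 at 3.06 ± 0.67 (0.0422). Leaving out any single array kept all 7 calls.

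The pairs of compartments were compared from the same fit, so pairs that share a compartment share its arrays. Against collecting duct, 7 of 8 genes were called higher in proximal tubule (3.65% of all genes). Against smooth muscle all 8 tested genes were called higher (12.3% of all genes), and against urothelium 7 of 8 (6.44% of all genes). With the block, 6 of 8 held against collecting duct (2.77% of all genes) and 5 of 8 against smooth muscle (3.12%), where Slc22a12 (limma adjusted p = 0.0598), Slc22a5 (0.505) and Slc22a18 (0.651) were lost. Against urothelium the block left 1 of 8, Slc22a22 (6.09, limma adjusted p = 0.0451), when 0.0955% of all genes were called higher there. The lost urothelium differences for Slc22a2, Slc22a6 and Slc22a8 were 5.86, 6.36 and 4.23 with the block and 5.70, 4.95 and 3.04 without it, so their size was not reduced. Those for Slc22a5, Slc22a12 and Slc47a1 were smaller with the block, at 1.93, 2.20 and 0.81 against 2.31, 2.66 and 3.39 (limma adjusted p = 0.518, 0.526 and 0.857). Within label batches, proximal tubule was above collecting duct by 6.55 and 4.51 for Slc22a6, 3.46 and 1.55 for Slc22a8, 4.94 and 3.41 for Slc22a2, 5.15 and 7.27 for Slc47a1, 3.46 and 4.30 for Slc22a12, and 6.84 and 5.80 for Slc22a22 (batches 3 and 4). Each of these is a difference of 1 or 2 arrays against 1.

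Between collecting duct and urothelium, 0 of the 8 genes were called by limma and 3 had an unadjusted p under 0.05, where 0.257% of all genes were called. These compartments shared no label batch, so this comparison cannot be told apart from batch. With the block 0% of all genes were called higher or lower there. With a pseudocount of 190, 1 of 8 was called. Slc22a18 and Slc47a1 were the members called higher in collecting duct than in smooth muscle and also in urothelium than in smooth muscle, where 4.91% and 5.03% of all genes were called higher. With the block, limma called neither gene between collecting duct and smooth muscle (1.39% of all genes), and Slc47a1 alone between urothelium and smooth muscle (3.76%). Set against the mean of the other compartments, smooth muscle was lower for 5 of 8 genes (9.12% of all genes), namely Slc47a1 (-6.11), Slc22a2 (-2.59), Slc22a22 (-1.97), Slc22a18 (-1.82) and Slc22a12 (-1.36). With the block 3 of these 5 held (4% of all genes). The mean set against smooth muscle holds proximal tubule. Urothelium over smooth muscle was 0.22, 0.25 and 0.89 for Slc22a2, Slc22a22 and Slc22a12 (limma adjusted p = 0.893, 0.846 and 0.352). Collecting duct over smooth muscle was 1.61, -0.41 and -0.36 for them (limma adjusted p = 0.130, 0.722 and 0.786). For these 3 genes smooth muscle was thus called lower than proximal tubule only. Collecting duct was lower for Slc22a6 (-2.67) and Slc22a22 (-2.52) (0.624% of all genes), and urothelium for Slc22a2 (-2.29) and Slc22a22 (-1.63) (0.713% of all genes). These last 4 calls also hold proximal tubule in the mean they are set against. With the block they were lost, as were those of all genes in that direction (0%). The collecting duct pair fell to 0 calls without either of its arrays and to 1 without proximal tubule replicate 2. The urothelium pair fell to 0 without urothelium replicate 1 or 2 and to 1 without collecting duct replicate 1 or proximal tubule replicate 2 or 3.

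**Figure D3:**
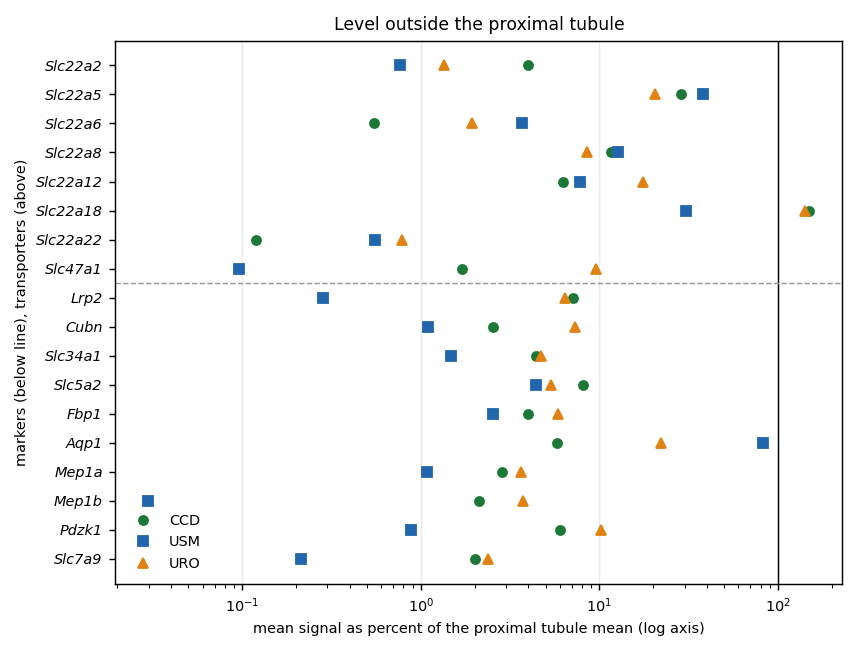
Mean signal in collecting duct, smooth muscle and urothelium as a percent of the proximal tubule mean, on a log axis, for the 8 tested transporters (above the dashed line) and 10 proximal tubule markers (below it). Slc22a5 and Slc22a18 have the highest percent of the 8 transporters in all 3 compartments, and Slc47a1 spans the range from 0.0958% in smooth muscle to 9.61% in urothelium.

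Levels outside the proximal tubule were set beside those of proximal tubule markers, because captured pools can hold neighbouring cells, and in bulk samples fewer cells of a type and less RNA per cell cannot be told apart. The 10 markers had a median of 4.19% of their proximal tubule mean in collecting duct (2.01% to 8.08%), 1.09% in smooth muscle (0.0299% to 82.4%, the highest being the water channel Aqp1) and 5.59% in urothelium (2.37% to 22.1%, again Aqp1). In collecting duct, Slc22a2 at 3.98% and Slc22a12 at 6.24% were within the marker range, Slc47a1 at 1.69%, Slc22a6 at 0.544% and Slc22a22 at 0.119% were below it, and Slc22a8 at 11.6%, Slc22a5 at 28.7% and Slc22a18 at 150% were above it. In smooth muscle, Slc47a1 at 0.0958%, Slc22a22 at 0.557% and Slc22a2 at 0.763% were below the marker median. Slc22a6 at 3.71%, Slc22a12 at 7.77%, Slc22a8 at 12.8%, Slc22a18 at 30.6% and Slc22a5 at 38.1% were above it and below Aqp1. In urothelium the marker next to Aqp1 was Pdzk1 at 10.2%. Slc47a1 at 9.61% and Slc22a8 at 8.50% lay within the marker range. Slc22a12 at 17.5% and Slc22a5 at 20.4% lay between Pdzk1 and Aqp1, above all other markers, and Slc22a18 at 141% was above the range. Slc22a2 at 1.34%, Slc22a6 at 1.94% and Slc22a22 at 0.787% were below the range. These places are for the probe set used, and other probe sets moved some. In collecting duct, those of Slc22a8 (6.14%) and Slc22a6 (6.56%) were within the range and that of Slc22a12 (20.2%) above it. In urothelium, those of Slc22a6 (5.56%) and Slc22a12 (8.84%) were within it, that of Slc22a8 (1.87%) below and the dim one of Slc22a5 (46.5%) above. In smooth muscle that of Slc22a18 read 172%. The part of carried-over proximal tubule RNA in these levels was not tested. The Slc47a1 signal in the urothelial arrays did not follow the marker sum: Slc47a1 was highest in replicate 2 (7457), where the markers summed to 4995, and lowest in replicate 1 (4344), where they summed to 14686. In collecting duct both were higher in replicate 2, with Slc47a1 at 282 and 1782 and marker sums of 3907 and 10367 in replicates 1 and 2. With so few arrays these orders are given as values only.

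Within the proximal tubule, replicate 1 had the lowest signal of the 3 arrays for 8 of the 8 genes past the filter. It was also the lowest for 8 of 10 proximal tubule markers, for 53.3% of the 1153 genes that had all proximal tubule arrays on top, and for 36% of all genes. The other probe sets did not follow this order everywhere. Those of Slc22a6 and Slc22a8 were lowest in replicate 3, and the dim one of Slc22a5 was lowest in replicate 2. Replicate 1 was the only proximal tubule array of label batch 4, so array and batch cannot be told apart.

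Across the 11 arrays the members' log2 values were correlated as follows, given as a description because all arrays share the compartment steps. Slc22a6 and Slc22a8 had the highest Pearson r, 0.957, followed by Slc22a6 with Slc22a22 (0.953) and Slc22a12 with Slc22a22 (0.944). Slc22a18 had r from -0.21 to 0.58 with the others. Leaving out the members and clone or predicted gene names, Pearson r over the other genes tested gave the genes most like each member. They were Fgfr4, a fibroblast growth factor receptor, and Ambp, the precursor of alpha-1-microglobulin, for Slc22a2 (0.987 and 0.983), Thnsl2 and Gucd1 for Slc22a6 (0.978 and 0.961), and Fpgs, the folate polyglutamate synthase, for Slc22a8 (0.958). Lgr4, an R-spondin receptor, came first for Slc22a12 (0.985), Hsd3b5 and Prodh2 for Slc22a22 (0.987 and 0.985), and Klf1 for Slc22a5 (0.951). For Slc47a1 they were Rabggta (0.964), Dnajc22 (0.959) and the endocytic receptor Cubn (0.957). For Slc22a18 they were Sox11 (0.943), Napepld (0.930) and the efflux pump Abcc4 (0.928).

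**Figure D4:**
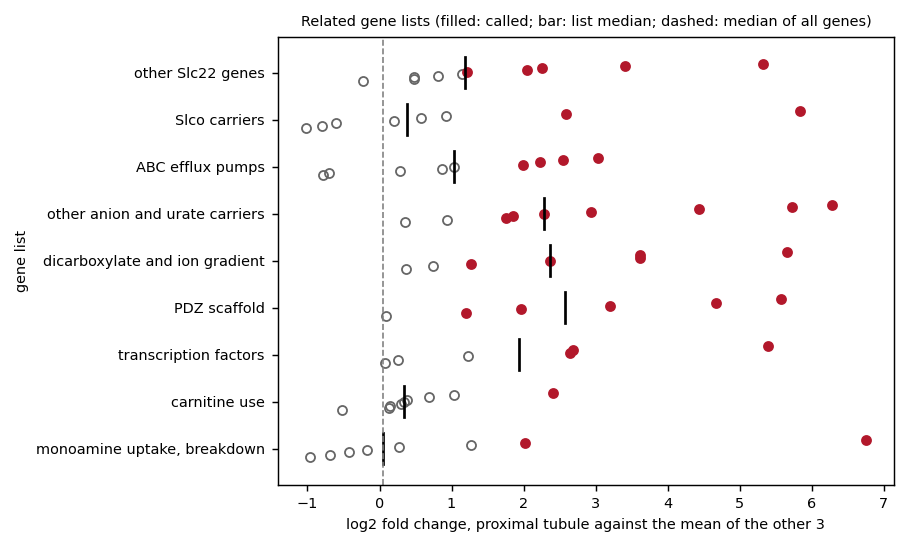
Log2 fold change of proximal tubule over the mean of the other 3 compartments for the measured genes of 9 related lists, 1 point a gene. Filled points were called, bars are list medians and the dashed line is the median of all genes, 0.05; the scaffold, ion gradient and other anion carrier lists have the highest medians, 2.58, 2.37 and 2.28, and the monoamine list lies at the median of all genes.

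Related genes were read from lists that follow the transporters' roles. Each list is set against a median log2 fold change of 0.05 over all genes tested. Of all genes, 9.53% were called higher in proximal tubule, and 2.01% with the block. A listed gene counts as measured only if it passed the filter, and array medians were 247 to 401. Outside proximal tubule, Slc22a30, Abcc6, Abcc2, Abcb1a, Hnf4g and Slc6a4 read under 247 on every array. They passed only through proximal tubule and had to differ, so their calls add no support. How many other called genes share this was not counted. Of 10 measured other Slc22 genes, 5 were called higher in proximal tubule (list median 1.18; 2 with the block, and 3 without proximal tubule replicate 2). They included Slc22a19, an anion carrier (5.32 ± 0.52, limma adjusted p = 2.56e-05), with signals of 3873, 10105 and 4328 in proximal tubule and at most 253 elsewhere. That value was on urothelium replicate 1, and the next was 247 on urothelium replicate 3. Outside proximal tubule, Slc22a29 read 415 on urothelium replicate 2 and at most 95.9 on the other arrays. Slc22a19 and Slc22a29 thus passed the filter mainly through proximal tubule, and their p-values add little support. Slc22a13 (2.26) and Slc22a30 (2.04) were also called, while Slc22a29 (3.40), read by a probe set of the x type that close relatives may share, lost its call without proximal tubule replicate 2 (limma adjusted p = 0.0591), the array in which it was brightest. The fifth was Slc22a17.

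Carriers and pumps that supply the exchangers' gradients were read next. Of 7 measured dicarboxylate carriers and ion gradient genes, 5 were called higher (list median 2.37; 2 with the block, and 3 without proximal tubule replicate 3). Slc13a3, which brings dicarboxylates in on the blood side, was higher by 3.62 (log2), the proton exchanger Slc9a3 by 3.61 and the sodium pump subunit Fxyd2 by 5.65. Slc13a2, the urine-side dicarboxylate carrier, was higher by 2.37, a call lost without proximal tubule replicate 3 (limma adjusted p = 0.0599). Of 9 measured other anion and urate carriers, 7 were called higher (list median 2.28; 3 with the block), among them the phosphate and urate carrier Slc17a1 (6.29), the lactate carrier Slc5a8 (5.72), Slc17a3 (4.44) and the bicarbonate carrier Slc4a4 (2.94). PDZ scaffold proteins hold urine-side carriers in place. Of 6 genes for such scaffolds and their partners, 5 were called higher (list median 2.58, with 3 called with the block and 3 without proximal tubule replicate 2). Pdzk1, which binds Slc22a12, was higher by 4.68, Pdzd3 by 5.57 and Slc9a3r1 by 3.19. Pdzk1ip1 was higher by 1.97 than the mean of the others, although collecting duct replicate 1 held 34766 against 17866, 29293 and 16845 in proximal tubule, and lost its call without proximal tubule replicate 2 (limma adjusted p = 0.0793).

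Efflux pumps and the Slco family had lower list medians. Of 9 measured ABC efflux pumps, 4 were called higher (list median 1.04; 2 with the block or without proximal tubule replicate 2), Abcc6 by 3.03, Abcc2 by 2.54, Abcg2 by 2.22 and Abcb1a by 1.99. Abcg2 lost its call without proximal tubule replicate 1 (limma adjusted p = 0.0531) or replicate 2 (0.0610), and Abcb1a without replicate 2 (0.0652). Of 8 measured Slco genes, 2 were called higher (list median 0.39), and with the block neither was. Slco1a6 was higher by 5.84, and Slco2a1, the prostaglandin carrier, by 2.59 although urothelium held 5290, 7241 and 1666 against 4718, 7327 and 4164 in proximal tubule, which overlap.

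Among transcription factors of the liver type, 3 of 6 measured were called higher (list median 1.94; 1 with the block). Hnf4a, which is known to act on several of these transporter genes, was higher by 5.39 with signals of 38942, 37589 and 28464 in proximal tubule and at most 4132 elsewhere. With the less specific probe sets (types x, s and a) left out, another probe set stood for Hnf4a, at 0.67 (limma adjusted p = 0.222). Hnf4g (2.69) and Nr1h4 (2.65) were the other called factors. Of 9 measured genes of carnitine use, 1 was called higher (list median 0.34), close to the share of all genes, and none kept a call with the block. It was the carnitine efflux carrier Slc16a9 (2.41), and its call was lost without proximal tubule replicate 1 (limma adjusted p = 0.0743) or 2 (0.0568). Of 8 measured genes of monoamine uptake and breakdown, 2 were called higher (list median 0.05; 1 with the block), Hdc, the enzyme that makes histamine (6.76), and the serotonin carrier Slc6a4 (2.02). The unnamed genes of these lists did not pass the call rule in this comparison, with few exceptions. Those that did pass were 3 other anion and urate carriers, 1 ion gradient gene and 1 gene of the scaffold list.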

How the data were processed

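Probe set signals were used as the authors deposited them: linear intensity values, made with GCOS (Affymetrix GeneChip Operating Software) per the submitters' processing notes, version not stated, from RNA amplified in 2 rounds per the labels' protocols. No detection calls were used. Every array had a mean of 1500 without its lowest and highest 2%, and this scaling was kept. Of 45101 probe sets, 64 were controls. Those brighter than the array median on 2 or more arrays were kept (29565, of which 24427 had 1 gene symbol), and a gene was read from its probe set of highest mean (13614 genes). The pseudocount of 55 is the rounded 20th percentile of the table. One limma fit over all 11 arrays gave 4 compartment means (limma 3.58.1, R 4.3.3, 7 residual and 6.38 prior degrees of freedom), and the scripts were tested on simulated data. Symbols came from the platform annotation and were checked by Entrez identifier against RefSeq for 34754 probe sets. Listed genes without a probe set past the filter were not used here.

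The 9 genes and all lists were chosen with earlier results of these data known. In the related lists, up to 4 called genes a list with the largest fold changes are named with values. Any further named gene was chosen after its values were seen. The genes most like a member are named from the first 3 by Pearson r, not always all 3. Replicate numbers follow accession order. The sources do not say whether pools of a compartment shared kidneys, so p-values measure the spread between these pools, and the number of arrays limits precision. Alternatives were quantile normalization, pseudocounts of 12 and 190, no filter, a stricter filter (75th percentile), probe set means, no x, s and a probe sets, limma's trend with robust fitting, a fixed or random block for label batch, and each array left out. Running these on the related lists was decided after seeing the data.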

Additional observations from a re-analysis of the deposited data

How the results depend on the processing

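Over the 62 gene differences and their 1281 recomputations, 69 lost the call and no called difference changed sign. The uncalled proximal tubule difference of Slc22a18 (0.17) became -0.21 with the mean of probe sets, -0.30 with label batch as a fixed block and -0.09 without proximal tubule replicate 3. The count of members called higher in proximal tubule than in the mean of the other compartments was 7, stayed at 7 without any single array and was 6 with label batch as a fixed block. Without single arrays, the counts ran from 5 to 7 against collecting duct, from 6 to 8 against smooth muscle and from 7 to 7 against urothelium. They ran from 0 to 3 for collecting duct and from 0 to 3 for urothelium against the mean of the others, from 4 to 5 for smooth muscle against the mean, and from 0 to 2 for collecting duct and from 1 to 2 for urothelium against smooth muscle. With label batch as a fixed block the counts were 0 for collecting duct, 0 for urothelium and 3 for smooth muscle against the mean of the others. The block gave 5 for proximal tubule against smooth muscle, 1 for proximal tubule against urothelium, 0 for collecting duct against smooth muscle and 1 for urothelium against smooth muscle. It leaves 4 residual degrees of freedom in place of 7, and as a random block the correlation within label batches was 0.0268. Urothelium against the mean of the others gave 1 with quantile normalization and 1 with the pseudocount of 12. Collecting duct against the mean gave 1 with the pseudocount of 12 and 4 with that of 190, and collecting duct against urothelium gave 1 with 190. The filter at the 75th percentile gave 1 for collecting duct and 1 for urothelium against smooth muscle, with 7 genes measured, and the mean of probe sets gave 1 for each of these with 8 measured. Some of these settings hold fewer genes or arrays, and the cause of the changes was not tested. With the block, the number of all genes called higher in proximal tubule went from 1297 to 273, and it was 704 without proximal tubule replicate 2 and 806 without replicate 3. No paired analysis was possible because the replicate numbers come from accession order and pair no samples across compartments, so label batch, which does tie some samples, was the block. Signals near the floor, such as those of Slc22a22 outside proximal tubule and the lowest ones of Slc22a4, have no order.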
